A study of Canis lupus familiaris with 36 samples.

Results

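MiR-143, miR-145, miR-199 and miR-214 are 4 microRNAs (miRNAs) associated with smooth muscle cells and fibroblasts, and they were chosen by name (cfa-miR-143, cfa-miR-145, cfa-miR-199 and cfa-miR-214, where cfa stands for the dog), as 4 of the 453 mature miRNAs in a small RNA sequencing table of dog heart. All 4 were present and all 4 passed the filter on low counts, together with 221 others. The table covers formalin-fixed, paraffin-embedded heart tissue of 12 dogs, with 6 cardiac hemangiosarcoma (HSA) libraries and 6 cardiac control libraries. HSA is a malignant tumor of endothelial cells, and the controls were dogs that died of causes other than cancer. The study's text states that the dogs with HSA were older than the controls and that earlier chemotherapy did not exclude a dog, so these properties cannot be told apart from the tumor. Every library was made from whole tissue, which holds tumor cells, heart muscle, vessels, connective tissue and blood in unknown parts. The libraries were grouped by their titles, since another label field names the opposite condition for each of the 12. The replicates of a group are different dogs.

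MiR-143 and miR-145 are made from a common transcript that is abundant in the smooth muscle of vessels, where its products favor the contractile state of these cells over the dividing one. MiR-199 and miR-214 are known from mesenchymal cells and fibroblasts, where they are processed from an RNA transcribed opposite to the gene of dynamin 3 and are linked to matrix production and fibrosis. Hereafter miR-143 and miR-145 are the smooth-muscle pair, and miR-199 and miR-214 the fibroblast pair. These names come from background knowledge, and small RNA libraries hold no mRNA of smooth muscle or fibroblasts with which to check them.

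In the RefSeq gene table of the dog assembly UU_Cfam_GSD_1.0, which is not the CanFam3.1 build of the authors and was used for names and neighbors alone, the genes MIR145 and MIR143 are direct neighbors. MIR199-2 and MIR214 are also direct neighbors, and the gene next to MIR199-2 on its other side is DNM3, for dynamin 3. Further copies of the miR-199 gene, MIR199-1 and MIR199-3, each have a gene of the dynamin family beside them, DNM2 and DNM1. The count table has 1 entry each for miR-143, miR-145 and miR-214. It has 3 entries for miR-199, one for each gene copy, and their counts are identical in every library. Reads of miR-199 therefore cannot be assigned to the copy beside miR-214, and the 3 entries were used as 1.

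Total counts per library, after merging of identical entries, lay between 6999830 and 11668822 for the control dogs and between 2018959 and 8999025 for the dogs with HSA. Levels are given in CPM, the count divided by the library's total on a common scale, adjusted by TMM, a factor per library that takes most miRNAs as unchanged. These factors were 0.769 to 0.889 in control and 0.948 to 1.97 in HSA. Over the 225 tested miRNAs, the median of the log2 fold changes was 0.34. Several HSA libraries were unusual, and HSA replicates 2 and 3 were singled out. HSA replicate 2 had the highest TMM factor, 1.97. In HSA replicate 3, the summed level of 7 miRNAs of heart and skeletal muscle was 687 CPM, against 127045 to 187517 CPM in control, and the heart miRNAs miR-208a and miR-208b had 0 counts, while miR-122, the abundant miRNA of liver cells, had 656788 counts. Results are therefore also given without both libraries, a choice made after the data were seen. A check by Dixon's criterion for outliers in 28 groups of values had found 0. HSA replicate 5, which was kept, had a summed level of epithelial miRNAs of 13569 CPM, against 9.78 to 22.9 CPM in control.

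MiR-143 was among the most abundant miRNAs of the dog heart, and miR-145, miR-199 and miR-214 followed at lower levels. MiR-143 ranked between 2 and 6 among all miRNAs of a control library and between 1 and 5 in HSA, and it had the highest count of all miRNAs in HSA replicates 1 and 5. With each mature miRNA counted by its highest entry alone, its share of counts was 7.10% ± 1.21 (SD, n = 6) in control and 9.53% ± 4.16 (SD, n = 6) in HSA. In the deposited CPM, which divide by the counts of all entries, its mean was 49224.8 in control and 70612.5 in HSA. MiR-145 ranked 30 to 33 in control and 20 to 40 in HSA, miR-199 34 to 41 and 32 to 43, and miR-214 76 to 82 and 73 to 111. In counts, miR-143 was above miR-145, miR-145 above miR-199, and miR-199 above miR-214 in 11 of the 12 libraries. The exception was HSA replicate 2, with 25121 counts of miR-199 and 18298 of miR-145. Mature miRNAs are of similar length, so these levels need no scaling for length, but the ligation of adapters favors some miRNAs over others. MiR-133a and miR-133c had nearly the same counts in each library, as did miR-103 and miR-107. Totals, ranks and shares may thus hold the same reads under more than 1 name.

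The comparison of HSA with control asks whether the level of each miRNA differs in tumor-bearing heart tissue. None of the 4 passed the test between cardiac HSA and cardiac control. The groups overlapped in each of them, whereas 25.8% of all tested miRNAs had groups without overlap. In the smooth-muscle pair, the TMM-normalized level of miR-143 ran from 55639 to 85601 CPM in control, with a median of 66092. In HSA it ran from 25269 to 118007 CPM, with a median of 62056. The lowest value was that of HSA replicate 2 and the highest that of HSA replicate 5, so tumor libraries lay on both sides of the control range and 3 lay inside it. HSA differed from control by -0.041 on the log2 scale (SE 0.30, edgeR's quasi-likelihood test, adjusted p = 0.924), and the 95% interval of -0.70 to 0.62 corresponds to 0.617-fold to 1.53-fold.

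MiR-145 was the most even of the 4 in control heart, from 3821 to 4446 CPM with a median of 4242. In HSA it ran from 2027 to 8070 CPM with a median of 4806, with replicates 3, 4 and 5 above every control library and replicates 1 and 2 below every one. The difference of 0.22 on the log2 scale (SE 0.26, edgeR, adjusted p = 0.496) had a 95% interval of -0.34 to 0.79. In control, the ranges of miR-145 and miR-199 did not overlap, whereas in HSA they did.

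In the fibroblast pair, miR-199 had nearly the same range in both groups, from 2201 to 3510 CPM in control (median 2650) and from 1827 to 3476 CPM in HSA (median 2657). A single HSA library, replicate 4, lay below the control range. The difference of -0.082 on the log2 scale (SE 0.18, edgeR, adjusted p = 0.727) had a 95% interval of -0.48 to 0.32, the narrowest of the 4. MiR-214 ran from 215 to 282 CPM in control (median 228) and from 122 to 371 CPM in HSA (median 198). HSA replicate 3 was above every control library, and HSA replicates 1, 4, 5 and 6 were below every one. The difference of -0.13 on the log2 scale (SE 0.24, edgeR, adjusted p = 0.668) had a 95% interval of -0.66 to 0.39. In bulk tissue, fewer cells of a type and less RNA per cell cannot be told apart, and this holds for every level given here.

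**Figure D1:**
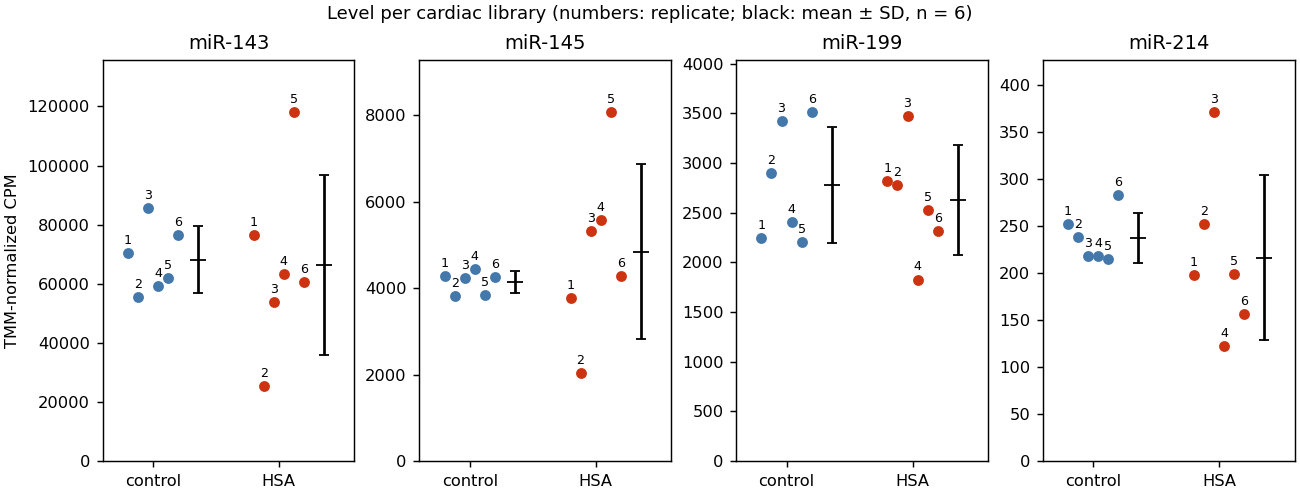
TMM-normalized CPM (y axis, linear from 0, own scale for each miRNA) of miR-143, miR-145, miR-199 and miR-214 in 6 control and 6 HSA libraries. Points are libraries with their replicate number, and black bars are the mean and SD. The control and HSA libraries overlap for each of the 4, and HSA replicate 5 is highest for miR-143 and miR-145 while HSA replicate 3 is highest for miR-214.

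These values stood beside many differences elsewhere. Of the 225 miRNAs tested, 58 (25.8%) were called at the study's thresholds, an adjusted p under 0.01 and a log2 difference of 1 or more either way, and 0 of the 4 miRNAs were. At an unadjusted p under 0.05 it was 53.3% of the 225 and again 0 of the 4. The absolute log2 fold change was smaller than that of miR-143 in 6 of the 225 miRNAs, than that of miR-199 in 14, than that of miR-214 in 23 and than that of miR-145 in 32, and its median over all 225 was 0.93. The number of called miRNAs depended on single libraries, with 24 to 29 without control replicate 1, 2, 4 or 5 and 38 without control replicate 6 or HSA replicate 4. None of the 4 was called in any of these fits.

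**Figure D2:**
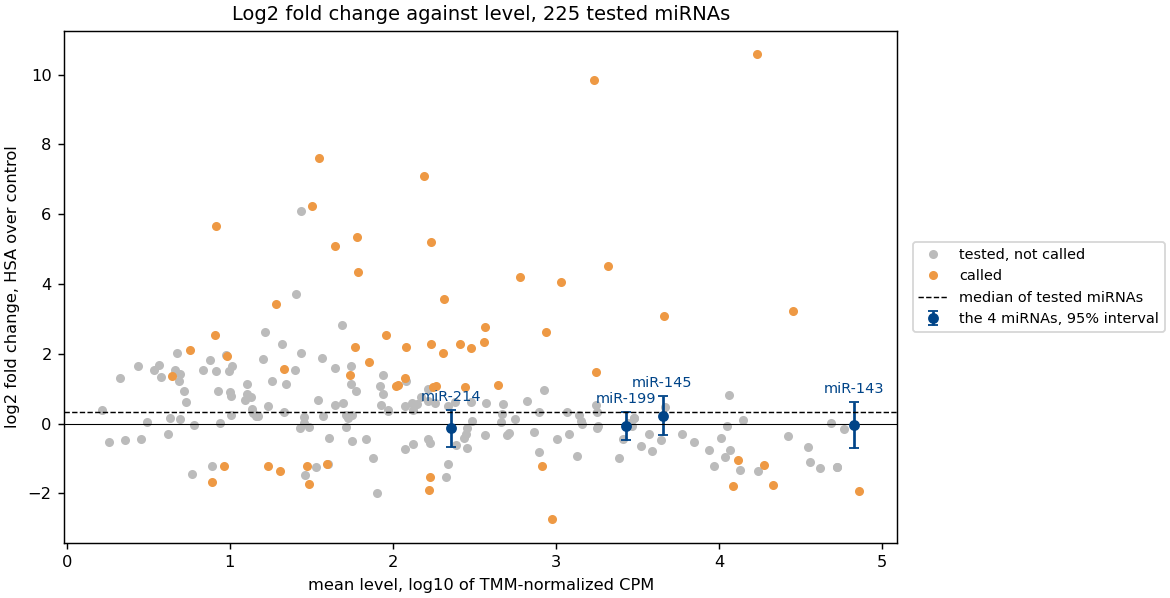
Log2 fold change of HSA over control (y axis) against the mean level in log10 of TMM-normalized CPM (x axis) for 225 tested miRNAs, with called miRNAs in orange. MiR-143, miR-145, miR-199 and miR-214 are in blue with 95% intervals, which all include 0, and the dashed line is the median of 0.34.

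The direction of these small differences followed the scaling. When libraries were scaled by their size alone, log2 differences of miR-143, miR-145, miR-199 and miR-214 were 0.46, 0.73, 0.52 and 0.49, which turned the sign for all except miR-145. With that scaling the median of all tested miRNAs was 0.97, so each of the 4 was below the median, as it was with TMM. MiR-145 had the smallest adjusted p there, 0.015 in edgeR, but its fold change was under the threshold. Calls over all miRNAs were split into 42 higher and 16 lower with TMM and into 68 and 5 with library size only. From its sequencing data the study chose miR-8859a, miR-8859b and miR-8884 as candidate qPCR references, which are thus not independent of these libraries. A further scale, added after the data were seen, left out miR-8884 and was the mean log2 count of miR-8859a and miR-8859b. Relative to these, the difference of HSA from control was 0.050 for miR-143 (exact permutation test, two-sided p = 0.881), 0.32 for miR-145 (exact p = 0.288), 0.13 for miR-199 (exact p = 0.550) and -0.0018 for miR-214 (exact p = 0.996), in 6 libraries against 6. A scale that included miR-8884 was not computed, so these signs hold for miR-8859a and miR-8859b alone. Without HSA replicates 2 and 3, the log2 fold changes in edgeR were 0.21 for miR-143 (adjusted p = 0.405), 0.36 for miR-145 (adjusted p = 0.111), -0.23 for miR-199 (adjusted p = 0.350) and -0.50 for miR-214 (adjusted p = 0.0488), with none called. HSA replicates 2 and 3 held the highest HSA levels of miR-214, at 252 and 371 CPM, so leaving them out lowers its HSA mean by construction.

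The HSA libraries differed more among themselves than the control libraries did. The SD of the log2 level was 0.24 in control and 0.73 in HSA for miR-143, 0.091 and 0.67 for miR-145, 0.15 and 0.55 for miR-214, and 0.30 and 0.31 for miR-199. A larger SD in HSA than in control was found for 91.1% of all tested miRNAs, with medians of 0.30 and 0.75, so the wider spread is not particular to these miRNAs. In order of SD among the HSA libraries, miR-199 was at place 206 of 225, counted from the most variable, and miR-143, miR-145 and miR-214 were at places 115, 120 and 146.

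The smooth-muscle and fibroblast pairs were then compared with each other by the ratio of counts within a library, which needs no scaling factor. There were 10 ratios, 2 within the pairs, 4 between them and 4 to miR-126, a marker miRNA of endothelial cells, and each was compared between 6 HSA and 6 control libraries by a two-sided exact permutation test, with p-values adjusted over the 10. The smallest p such a test can give is 0.00216. No ratio passed the test, and the lowest adjusted p was 0.570.

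Between the pairs, the mean log2 ratio of miR-143 to miR-199 was 4.63 ± 0.25 (SD, n = 6) in control and 4.54 ± 0.85 (SD, n = 6) in HSA, a difference of -0.082 with a 95% interval of -0.88 to 0.68 (exact p = 0.842, adjusted 0.913). The log2 ratio of miR-143 to miR-214 was 8.16 ± 0.25 and 8.21 ± 1.04, a difference of 0.052 with an interval of -0.98 to 0.93 (exact p = 0.913, adjusted 0.913). The ratios of miR-145 to miR-199 and to miR-214 differed by 0.19 with an interval of -0.60 to 0.94 (exact p = 0.602, adjusted 0.752) and by 0.32 with an interval of -0.59 to 1.19 (exact p = 0.426, adjusted 0.609).

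Individual HSA libraries lay on either side of the control libraries. The log2 ratio of miR-143 to miR-199 was 3.18 in HSA replicate 2 and 3.95 in HSA replicate 3, below the control range of 4.26 to 4.97. It was 5.12 in HSA replicate 4 and 5.54 in HSA replicate 5, above that range, and inside it in HSA replicates 1 and 6. HSA replicates 2 and 3 were also below and HSA replicates 4 and 5 above all control libraries in the ratio of miR-143 to miR-214, at 6.65, 7.18, 9.02 and 9.21 against 7.87 to 8.62. Within the pairs the HSA libraries kept closer together than between them. The log2 ratio of miR-145 to miR-143 was -4.03 ± 0.21 in control and -3.75 ± 0.35 in HSA (SD, n = 6 each), a difference of 0.27 with an interval of -0.12 to 0.63 (exact p = 0.134, adjusted 0.570). That of miR-214 to miR-199 was -3.53 ± 0.28 and -3.66 ± 0.27, a difference of -0.13 with an interval of -0.49 to 0.23 (exact p = 0.403, adjusted 0.609).

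**Figure D3:**
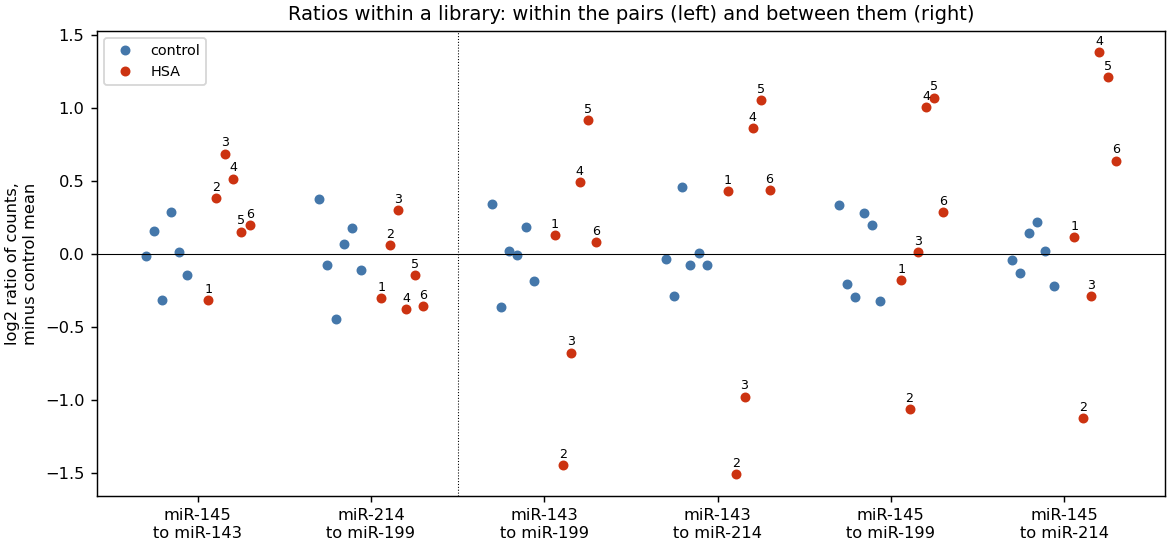
Log2 ratio of counts within a library minus the control mean (y axis) for 6 ratios of 2 miRNAs (x axis), with control libraries in blue and HSA libraries in red with their replicate numbers. The 2 ratios left of the dotted line are within a pair. In the 4 ratios between the pairs, the HSA libraries spread over both sides of the control libraries, with replicate 2 lowest in each.

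As a measure of how tightly the miRNAs kept their proportions among tumors, the SD of each log2 ratio in the 6 HSA libraries was set against that of all 25200 pairs of tested miRNAs, whose median was 1.39. It was 0.35 for the smooth-muscle pair, where 2.58% of all pairs had a smaller SD, and 0.27 for the fibroblast pair, where 0.976% had. For the 4 ratios between the pairs it was 0.80 to 1.04, with 23.3% to 35.4% of all pairs below. Control libraries did not show this order, with an SD of 0.21 for the smooth-muscle pair and 0.28 for the fibroblast pair, 0.16 to 0.31 between the pairs, and a median of 0.52 over all pairs. The ratio with the lowest SD in control was one between the pairs, miR-145 to miR-214, where 2.95% of all pairs had a smaller SD, against 7.27% and 15.6% for the ratios within the pairs. These shares are descriptions, since pairs of miRNAs share libraries and abundant miRNAs have less counting error.

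**Figure D4:**
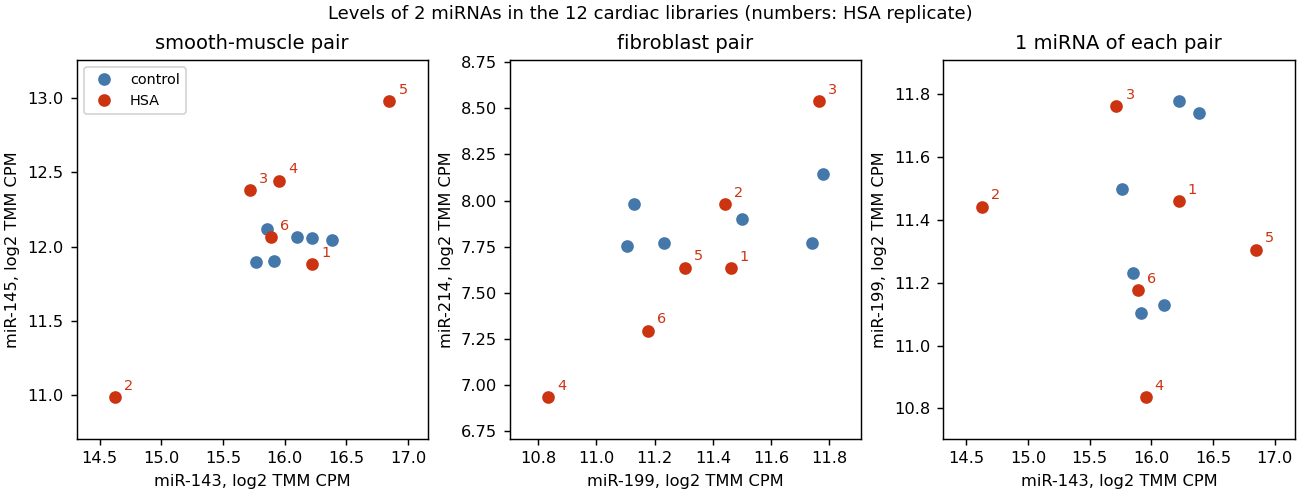
Log2 TMM-normalized CPM of 1 miRNA against another in the 12 cardiac libraries, for the smooth-muscle pair, the fibroblast pair and miR-143 with miR-199. HSA libraries are red with their replicate numbers and control libraries blue. In the left panel r over the 6 HSA libraries is 0.88, with replicate 2 lowest and replicate 5 highest in both miRNAs and no shared order among the others. In the middle panel the HSA libraries run from low to high in both miRNAs, with r of 0.96, and in the right panel r over these is -0.20.

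Levels of the partners also moved together across libraries, although this rested on few of them. Over the 12 libraries, log2 levels of miR-143 and miR-145 had a Pearson r of 0.81 (permutation p = 0.0116, adjusted 0.0698 over the 12 coefficients of 6 pairs) and a Spearman rho of 0.25 (permutation p = 0.430, adjusted 0.760). Without HSA replicates 2 and 5, the libraries farthest from the median of miR-143, r was -0.30. For miR-214 and miR-199, r was 0.74 (permutation p = 0.00505, adjusted 0.0606) and rho was 0.59 (permutation p = 0.0480, adjusted 0.192), and r was 0.44 without HSA replicates 3 and 4. Within the 6 HSA libraries r was 0.88 for the smooth-muscle pair and 0.96 for the fibroblast pair, and within control it was 0.44 and 0.40. Neither relation over the 12 libraries passed an adjusted p of 0.05. Between the pairs, r lay between -0.21 and 0.013, with adjusted permutation p of at least 0.760.

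Of the 224 other tested miRNAs, the one with the highest r to miR-143 was miR-145, and the reverse, and the one with the highest r to miR-199 was miR-214, and the reverse. There were 45 such mutual first pairs among the 225 tested miRNAs, and the median of the highest r was 0.91, so they are not particular to these 4. Names with nearly the same counts, such as miR-103 and miR-107, were not taken out of the 225. After its partner, miR-143 was most like miR-374b (r = 0.70) and miR-185 (r = 0.66), and miR-145 most like miR-429 (r = 0.77), of the epithelial miR-200 family, and let-7f (r = 0.65). For miR-199 these were miR-885 (r = 0.55) and miR-381 (r = 0.54). For miR-214 they were miR-885 (r = 0.72) and miR-103 (r = 0.67), whose counts were nearly those of miR-107. These values describe 12 libraries with their scaling in common. MiR-885 stood at 462 CPM in HSA replicate 3 and at 1.33 to 20.4 CPM in the other libraries, and its r within control was -0.12 to miR-199 and -0.24 to miR-214. MiR-429 stood at 108 and 202 CPM in HSA replicates 4 and 5 and at 0 to 7.16 CPM elsewhere, and its r to miR-145 within control was -0.44. Members of the other pair took places 96 to 195 of 224, with miR-143 at place 96 for miR-199.

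Relative to the endothelial miR-126, the HSA libraries fell on either side of the control libraries again. MiR-126 had 2972 ± 649 CPM (SD, n = 6) in control and 2176 ± 1443 CPM (SD, n = 6) in HSA, which is -0.45 on the log2 scale (SE 0.37, edgeR, adjusted p = 0.328). It was 944 to 1547 CPM in HSA replicates 2, 3, 4 and 5, below the control range of 2371 to 4213. In HSA replicates 1 and 6 it was 4295 and 3719 CPM. MiR-199 itself left its control range only in HSA replicate 4, where it was lower, so the departures of its ratio below rest on the denominator. The log2 ratio of miR-143 to miR-126 was 4.24 to 4.86 in control. It was 5.49, 6.07 and 6.44 in HSA replicates 3, 4 and 5, above every control library, and 4.15, 4.03 and 4.03 in HSA replicates 1, 2 and 6, below every one. The ratio of miR-199 to miR-126 was above the control range of -0.42 to 0.42 in HSA replicates 2, 3, 4 and 5, at 0.85, 1.54, 0.95 and 0.90, and below it in HSA replicates 1 and 6, at -0.61 and -0.68. The mean difference of HSA from control was 0.51 for miR-143 (interval -0.53 to 1.59), 0.78 for miR-145 (-0.51 to 2.05), 0.59 for miR-199 (-0.31 to 1.41) and 0.46 for miR-214 (-0.58 to 1.49), with exact permutation p from 0.169 to 0.374 and adjusted p from 0.570 to 0.609. Without HSA replicates 2 and 3 these differences were 0.64 for miR-143, 0.78 for miR-145, 0.24 for miR-199 and -0.054 for miR-214. Single libraries also moved them, to 0.23 for miR-143 without HSA replicate 5 and 0.30 without HSA replicate 4, to 0.38 for miR-199 and 0.16 for miR-214 without HSA replicate 3, and to 0.71 and 0.73 for miR-214 without HSA replicate 1 or 6.

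Signs of other cells also varied between the HSA libraries. Over all 225 tested miRNAs, 18.7% were called higher and 7.11% lower, with a median log2 fold change of 0.34. Of the muscle miRNAs, all 7 passed the filter and 0 were called, with a median log2 fold change of -1.24. Their summed level was 130291 and 161535 CPM in HSA replicates 1 and 6, within the control range of 127045 to 187517. It was 13502, 687, 26191 and 61530 CPM in HSA replicates 2, 3, 4 and 5. These libraries were outside the control range in the ratios of miR-143 to miR-199 and to miR-214, but in opposite directions. HSA replicates 2 and 3 were below it and HSA replicates 4 and 5 above it. MiR-208a was at 0 counts in HSA replicates 3, 4, 5 and 6. With the summed muscle level as a covariate, the log2 fold changes in edgeR were 0.18 for miR-143, 0.22 for miR-145, -0.25 for miR-199 and -0.55 for miR-214, with adjusted p from 0.0723 to 0.662. Of 8 epithelial miRNAs, 4 were tested and 3 were called higher, with a median of 6.60, and their sum was 9.78 to 22.9 CPM in control and 76.2 to 13569 CPM in HSA, highest in HSA replicate 5. All 3 liver miRNAs were called higher, with a median of 4.21, and their sum was 157 to 261 CPM in control and 339 to 216640 CPM in HSA, highest in HSA replicate 3. Of 6 blood cell miRNAs, 4 were called higher and 0 lower, with a median of 1.96. These were miR-223 of myeloid cells, miR-150 of lymphocytes, miR-142 of white blood cells and miR-144 of red blood cells, with log2 fold changes of 3.58, 2.35, 2.16 and 1.77. The sum of the 6 was 21098 to 30258 CPM in control and 6359 to 49671 CPM in HSA, most of it from miR-451 and miR-486 of red blood cells, which were not called and stood at 0.81 and -1.33. The part of the muscle, epithelial, liver and blood signals in the ratios was not tested.

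Lists of other miRNAs known from smooth muscle and fibroblasts held both called and uncalled members. On a list of 13 miRNAs that act on the state of smooth muscle cells, 4 were called higher in HSA, 0 lower and 9 were not called, where 18.7% and 7.11% of all tested miRNAs were called higher and lower. The 4 were miR-21, miR-146a, miR-204 and miR-221, with log2 fold changes of 3.23, 2.63, 2.03 and 1.11 and adjusted p of 0.000485, 0.00112, 0.00461 and 0.00384 in edgeR. The median of the 13 was -0.30, where that of all tested miRNAs was 0.34, and the list includes the heart muscle miRNAs miR-1 and miR-133a. On a list of 15 miRNAs of fibroblasts and matrix, 5 were called higher, 1 lower and 9 were not called, with a median of 0.48. Nothing particular to either list was tested. MiR-146a and miR-155 are also abundant in white blood cells, whose miR-223, miR-150 and miR-142 were higher in the same comparison, and the part of blood cells in their rise was not tested. MiR-21, which promotes fibrosis and is on both lists, miR-132, miR-155 and miR-18a rose by 3.23, 2.53, 2.27 and 1.56 on the log2 scale, with adjusted p of 0.000485, 0.000935, 0.00915 and 0.00156 in edgeR. The fifth was miR-19b, at 1.39, and the one lower was miR-30c, at -1.19. The miRNAs of the antifibrotic miR-29 family were not called, with log2 fold changes of 0.48, 0.51 and 0.33 for miR-29a, miR-29b and miR-29c and adjusted p from 0.0445 to 0.502 in edgeR.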

How the data were processed

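Small RNA of 12 cardiac FFPE tissues was analysed (6 HSA, 6 control). Splenic libraries were not analysed here. The authors trimmed reads with Cutadapt 4.1, dropped those under 17 nt, aligned them to CanFam3.1 with Bowtie 1.3.1 and counted miRBase 22.1 miRNAs with HTSeq 2.0.2. They deposited raw counts, with an entry for each precursor of a mature miRNA, and CPM, which could be recomputed from those counts to within 0.00499. The labels give no sequencing batch, name another library kit (QIAseq) than the study's methods (NEXTflex), and use a different form of library name in each group. Of 517 entries, 474 remained after merging those identical in name and counts. EdgeR 4.0.16 in R 4.3.3 was run on the raw counts with TMM factors, its default filter and its quasi-likelihood test, with Benjamini-Hochberg adjustment over 244 entries of 225 mature miRNAs. A mature miRNA was represented by its entry with the highest total. Standard errors (SE) were derived from the estimate and F. DESeq2 1.42.0 (the study's tool) and limma 3.58.1 on log2 of the deposited CPM plus 1 were alternatives, beside other scalings and filters, a covariate, a replicate term and the omission of single libraries. Ratios used counts plus 0.5, and their 95% intervals invert the exact test. Correlations used 100000 permutations and log2 CPM with a prior count of 2. The 4 miRNAs and all lists were chosen with earlier results of these data known. Named are the 4 miRNAs, miR-126, the 3 miRNAs with the highest r to each, and at most 4 called miRNAs of a list. MiR-1, miR-133a, miR-133c, miR-451, miR-486, miR-19b, miR-30c, miR-107, miR-122, miR-208a, miR-208b, the miR-29 family and the qPCR reference miRNAs were named after their values were seen. Tests were tried on simulated data. Python 3.11.15 and scipy 1.17.1 were used. Intervals are for the difference between the groups, given the spread between these dogs, and do not cover the range of single dogs.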

Additional observations from a re-analysis of the deposited data

How the results depend on the processing

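None of the 4 miRNAs was called and no ratio passed an adjusted p of 0.05 under any alternative run. Signs were less stable. The log2 fold change of miR-143 turned positive with library size only (0.46), limma on the deposited CPM (0.45), a mean of at least 10 CPM (0.0079), the muscle covariate (0.18), the reference miRNAs (0.050) and without HSA replicates 2 and 3 (0.21). Those of miR-199 and miR-214 turned positive with library size only (0.52 and 0.49) and with limma (0.54 and 0.40), and that of miR-199 also with the reference miRNAs (0.13). The reference miRNAs here are miR-8859a and miR-8859b, without miR-8884. Without HSA replicates 2 and 3, the difference in the log2 ratio of miR-143 to miR-199 was 0.41, that of miR-214 to miR-126 was -0.054, and those of miR-143 and miR-145 to miR-214 were 0.70 and 0.84 (exact test, adjusted p = 0.0714 for both). Of the HSA libraries, replicates 2 and 3 were highest in miR-214 to miR-126 and lowest in the other ratios just named. Leaving them out thus moves each difference in a direction set beforehand, so these p-values are no support for a difference. With 1 library left out, the log2 fold changes ran from -0.41 to 0.067 for miR-143, from -0.14 to 0.30 for miR-145, from -0.34 to -0.012 for miR-199 and from -0.36 to -0.055 for miR-214. The difference in ratio ran from -0.28 to 0.19 for miR-143 to miR-199 and from -0.15 to 0.36 for miR-143 to miR-214. The count of called miRNAs ran from 24 to 65, and was 11 in a test against the fold threshold and 24 with the muscle covariate. It was higher, at 74, with DESeq2, 73 with library size only and 76 at an adjusted p under 0.05, where the main fit had 58. Adding 1 to each count or summing all entries changed no ratio's sign.

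Control dogs died of causes other than cancer, so no dog is in both groups and a replicate number does not join samples of a dog. The correlations of same-numbered deviations ran from -0.27 to 0.046, and no library correlated best with its own number. With the replicate block, 6 miRNAs were called, the log2 fold changes of miR-143, miR-145, miR-199 and miR-214 were -0.17, 0.11, -0.083 and -0.22, and no ratio passed. With 6 dogs a group, the 95% intervals of the fold changes allow up to 1.72-fold higher (miR-145) and 0.617-fold (miR-143).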
